A study of Mus musculus with 30 samples.

Results

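Histone deacetylases remove acetyl groups from the lysines of histone tails and of many other proteins, and so act against acetyltransferases such as CBP. The zinc-dependent enzymes fall into classes. Class I enzymes sit mostly in the nucleus as the catalytic subunits of corepressor complexes, class IIa enzymes bind MEF2 transcription factors and leave the nucleus when calcium-responsive kinases phosphorylate them, class IIb enzymes act largely on substrates outside the nucleus, and Hdac11 alone makes up class IV. In the hippocampus, several of these enzymes are known to restrain or to permit the gene expression that memory consolidation needs. The genes described here are the 10 histone deacetylases other than Hdac3, taken by symbol from the 24883 rows of the expression table, which holds 11 numbered Hdac symbols in all. They comprise Hdac1, Hdac2 and Hdac8 of class I, Hdac4, Hdac5, Hdac7 and Hdac9 of class IIa, Hdac6 and Hdac10 of class IIb, and Hdac11. No measured value was used to choose them.

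The RNA came from the dorsal hippocampus (dCA1) of 30 wild-type adult male C57BL/6J mice, 6 in each of 5 conditions, with 1 hemisphere and 1 library per mouse. VEH-HC mice received the in vivo-jetPEI transfection reagent without DNA and then handling only in the home cage. VEH-T10 and VEH-T3 mice received the same reagent without DNA and explored objects for 10 min, the threshold period of the object location memory (OLM) task, or for 3 min, the subthreshold period. Y397F-T10 mice were trained for 10 min after transfection with a plasmid for CREST with a tyrosine changed to phenylalanine, labeled phospho-null. Y397D-T3 mice were trained for 3 min after transfection with the aspartic acid form, labeled phospho-mimetic. The paper treats both only as point mutants, because phosphorylation of this tyrosine could not be detected. Trained mice were dissected 1 h after training. CREST, encoded by Ss18l1, is a CBP-binding coactivator and subunit of a neuronal chromatin remodeling complex. The plasmids carried HA-tagged mouse Crest under a miniCaMK2 promoter, which favors excitatory neurons, so only transfected cells of the tissue could carry the mutant protein. Home cage mice differed from trained mice in the whole OLM procedure, not in object exploration alone, and no plasmid was given without training. No plasmid for wild-type CREST was given either, so an effect of expressing CREST and an effect of the mutation cannot be told apart.

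Values are FPKM, fragments per kilobase of exon scaled to the mapped fragments of each library, computed by the authors. Relative sequencing depth, read from the step size of rows at low values, ran from 0.811 to 1.24 around the median library. None of the 435 pairs of libraries held identical values, and their correlation over tested rows was at least 0.938. VEH-T3 mouse 1 and Y397F-T10 mouse 1 had the lowest median correlation with the other libraries, 0.964 and 0.967, the second of them hardly apart from the other 28, which ran from 0.967 to 0.983. All 6 CA1 pyramidal neuron markers were above 0 in every library. Ss18l1 ranged from 10.4 to 13.3 FPKM in VEH-T10 mice and from 11.4 to 14.0 in Y397F-T10 mice (adjusted p = 1.00 in limma). In VEH-T3 mice it ranged from 11.8 to 14.7 and in Y397D-T3 mice from 12.9 to 14.0 (adjusted p = 0.786 in limma). Total Ss18l1 RNA therefore did not separate plasmid from vehicle mice. Since this is bulk tissue, fewer cells of a type and less RNA per cell cannot be told apart in any value below.

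All 10 deacetylases were expressed in every library, and their levels spanned about an order of magnitude. FPKM is per length, so levels of different genes were set side by side. That scaling does not cover other gene traits such as GC content, which ran from 41.9% for Hdac2 to 60.2% for Hdac7 in the longest transcript. Hdac11 was the most abundant at 72.9 ± 7.23 FPKM (SD, n = 30 libraries), a level above that of 95.9% of all rows, and it made up 34.0% of the summed FPKM of the 10 genes. Hdac5, a class IIa enzyme, followed at 44.0 ± 2.40 FPKM and Hdac2, a class I enzyme known to limit synaptic plasticity, at 38.8 ± 2.52. Hdac1, the close paralog of Hdac2, reached 18.7 ± 2.07 FPKM, less than Hdac2 in every library.

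The remaining 6 genes lay at or below 10 FPKM on average. Hdac6, the cytoplasmic tubulin deacetylase, averaged 9.94 ± 0.950 FPKM. Hdac8, the class I enzyme that deacetylates cohesin, averaged 7.61 ± 0.852. Hdac9 (6.99 ± 0.661), Hdac4 (6.21 ± 0.857) and Hdac7 (5.33 ± 0.618), which together with Hdac5 form class IIa, came next. Hdac10, which acts on acetylated polyamines, was the least abundant at 4.12 ± 0.406 FPKM and still exceeded 60.5% of all rows.

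**Figure D1:**
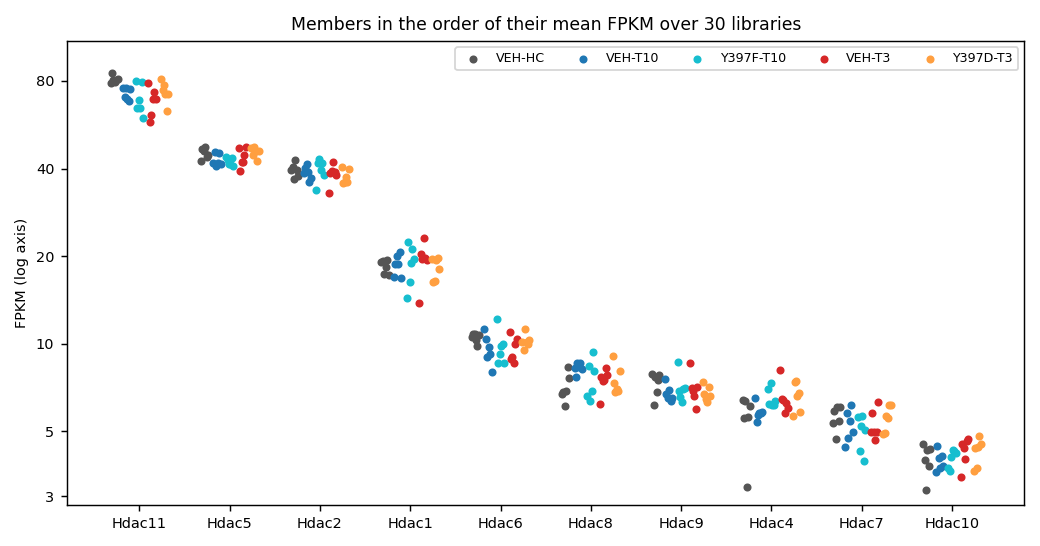
FPKM of each deacetylase (log axis) in all 30 libraries, 1 point per mouse, colored by condition, with genes ordered by their mean. Hdac11 lies above all others in every library, Hdac5 and Hdac2 come next, and the 5 genes from Hdac8 to Hdac10 lie close together between about 3 and 9 FPKM.

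Over the 30 libraries, which pool 5 conditions, the mean difference of each neighbor pair in this order passed a 2-sided sign-flip permutation test of the within-library difference in log2(FPKM + 1) with Benjamini-Hochberg adjustment over the 9 neighbor pairs. Adjusted p ran from 1.5e-05, which corresponds to the smallest p the 100000 resamples can give, to 0.00966. The test measures how steadily an order recurs across libraries, and a gene bias shared by all libraries would recur as well. Libraries overlapped within several pairs. The pair of Hdac8 and Hdac9 was the closest, with Hdac8 the higher in 23 of 30 libraries and a mean log2 difference of 0.11. Hdac4 exceeded Hdac7 in 24 libraries and Hdac9 exceeded Hdac4 in 25, while Hdac11 exceeded Hdac5 and Hdac1 exceeded Hdac6 in all 30. In the 6 home cage libraries taken alone, a comparison added after seeing the data, 7 of the 9 pairs held this order by the exact form of the permutation test (adjusted p = 0.0402 each). The other 2 turned by mean estimate, with Hdac8 below Hdac9 (-0.04, adjusted p = 0.633) and Hdac4 below Hdac7 (-0.03, adjusted p = 0.875 in the exact permutation test). Hdac8 was still the higher in 3 of these 6 libraries and Hdac4 in 4, and the Hdac4 mean includes VEH-HC mouse 4 at 3.22 FPKM. Neither order was therefore shown for those pairs in home cage mice.

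Between conditions the levels stayed close. The ratio of the highest to the lowest condition mean was 1.19 for Hdac4 and Hdac11, 1.17 for Hdac8, 1.12 for Hdac7 and between 1.06 and 1.09 for the other 6 genes. Hdac5 was the steadiest across the 30 mice, with a coefficient of variation of 5.45%, and Hdac4 the most variable, at 13.8%. Summed over the 10 genes, the mean was 224.3 FPKM for VEH-HC mice (219.6 to 231.2). It was 212.3 for VEH-T10 (207.8 to 216.5), 210.3 for Y397F-T10 (197.5 to 226.5), 209.9 for VEH-T3 (196.1 to 216.6) and 216.0 for Y397D-T3 (203.2 to 229.4). Most of that gap was Hdac11. The mean class I sum lay between 63.4 and 66.1 FPKM in every condition, and the class IIa sum between 60.7 and 64.6.

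**Figure D2:**
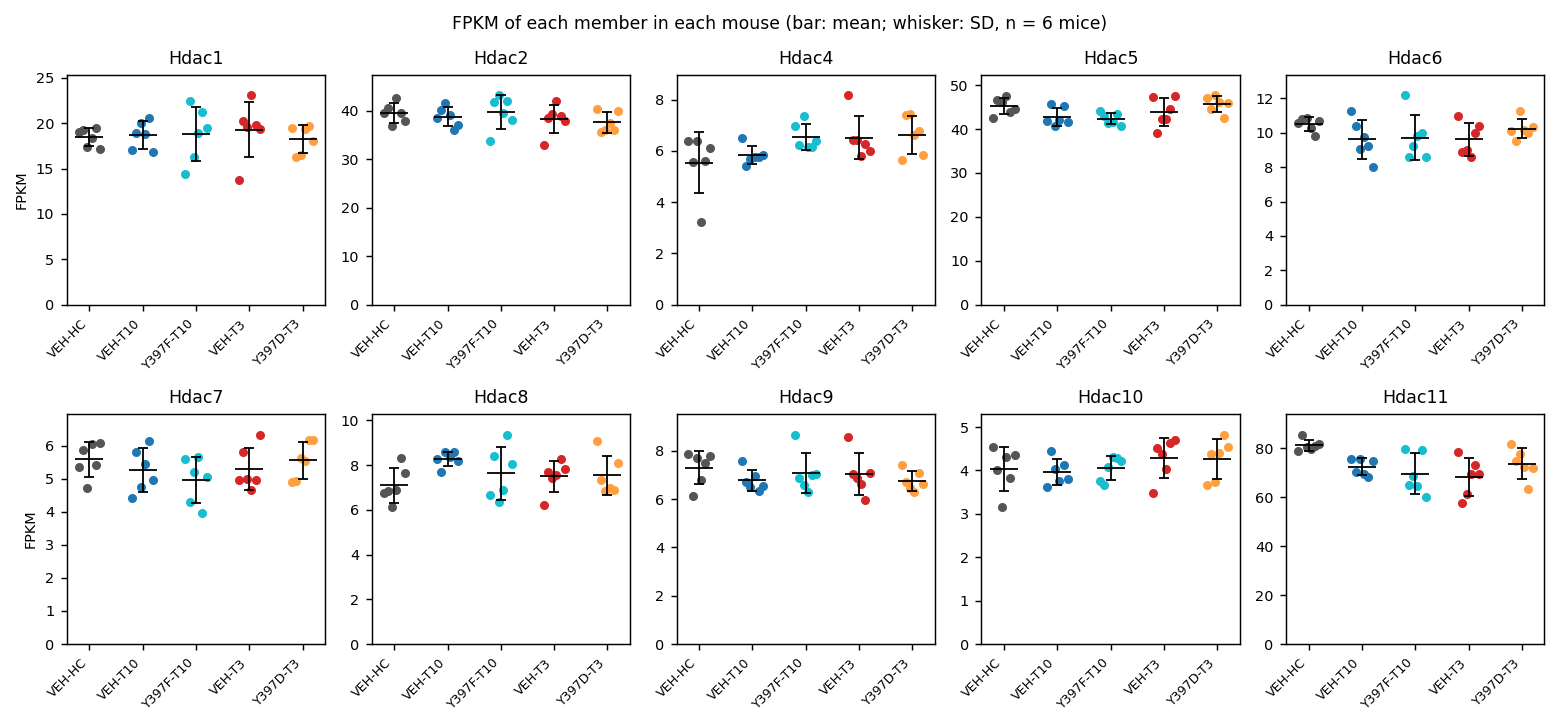
FPKM of each deacetylase in each mouse by condition, 1 panel per gene with axes from 0, with black bars for means and whiskers for SD (n = 6 mice). For Hdac11 the 6 VEH-HC mice (78.8 to 85.4 FPKM) lie above all VEH-T10 and VEH-T3 mice, in the other panels VEH-HC overlaps every trained condition, and a VEH-HC mouse at 3.22 FPKM stands apart for Hdac4.

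On the mm10 build Hdac7 and Hdac10 lie on chromosome 15, Hdac6 and Hdac8 on chromosome X, and the other 6 genes each on a chromosome of their own. Hdac11 (chr6:91156665-91174692, plus strand) spans 18.0 kb with 10 exons in its longest transcript. Hdac4 (chr1:91928779-92195699, minus strand) spans 267 kb and Hdac9 (chr12:34047580-34917095, minus strand) 870 kb, the widest of the family, while Hdac10 (chr15:89123307-89128700, minus strand) spans 5.39 kb. Hdac7 shares 29 bases with the oppositely transcribed Slc48a1, which averaged 55.2 FPKM.

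The CREB-CBP pathway acts through the cAMP response element, so the promoters of the family (a fixed window around each RefSeq start, GRCm38.p6) were searched on both strands for the full palindrome TGACGTCA and for its core TGACG, which the full site contains. Of the 10 genes 8 had promoter entries, 12 in all, and Hdac1 and Hdac10 had none. The full site was found in 0 of these promoters and in 1.79% of all 32851. The core was found for Hdac4, Hdac5 and Hdac11, and in 20.8% of all promoters. The stretches before the start are shown for Hdac11 and Hdac4, the genes with the largest estimated differences from the home cage in either direction, 5′ to 3′ on the gene's strand with the core in capitals.
Hdac11, chr6:91156694-91156723, plus strand, core 109 bases before the start: tccggtcgtctgTGACGcagctgcaggcca
Hdac4, chr1:92180427-92180456, minus strand, core 103 bases before the start: ccgagccgtaatTGACGctttcttcattag
Hdac4, chr1:92180375-92180404, minus strand, core 51 bases before the start: cacggggggaggTGACGcaaagccgttgta
In the GENCODE vM21 annotation of the same build the Hdac11 stretch falls in the first exon of its longest transcript model, in the 5′ untranslated part, and both Hdac4 stretches lie upstream of the coding transcript that starts there and inside an intron of longer noncoding models. A match of these letters is a description of the window and no evidence of binding.

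Training against the home cage was compared for each trained condition with limma on log2(FPKM + 1), fitted to the 13184 rows whose mean over all libraries reached 1 FPKM, a filter that all 10 deacetylases passed, and with Benjamini-Hochberg adjustment over those rows. A row was called at an adjusted p under 0.05. The same 6 VEH-HC mice served as control in each of these comparisons, so their results are not independent of each other.

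Hdac11, the class IV enzyme, which also removes long fatty acyl groups from lysines, was the only deacetylase called in the main fit, and it was lower. VEH-HC mice ranged from 78.8 to 85.4 FPKM with a median of 80.7. VEH-T10 mice ranged from 68.2 to 75.7 (median 72.6) and VEH-T3 mice from 57.7 to 78.5 (median 69.4), so neither group overlapped the home cage mice. Y397F-T10 mice ranged from 59.8 to 79.8 (median 66.8) and Y397D-T3 mice from 63.1 to 81.5 (median 73.6). Both overlapped the home cage range, and the highest Y397D-T3 mouse lay above the home cage median. In all, 21 of the 24 trained mice lay below every home cage mouse. A complete separation with the trained group lower occurred in 1.64% of all rows for VEH-T10 and in 1.31% for VEH-T3.

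The decrease of Hdac11 passed the test in VEH-T3, by 0.25 ± 0.07 on the log2 scale (SE, 0.839-fold, adjusted p = 0.0351 in limma), and 6 of 6 mice lay below the home cage median. In VEH-T10 the difference was -0.16 ± 0.07 (adjusted p = 0.262), in Y397F-T10 -0.23 ± 0.07 (adjusted p = 0.0948) and in Y397D-T3 -0.14 ± 0.07 (adjusted p = 0.205), and these did not pass. Averaged over the 4 trained conditions, Hdac11 fell by 0.20 ± 0.06 (0.873-fold, adjusted p = 0.0247 in limma), with 23 of 24 trained mice below the home cage median. The differences between the 4 trained conditions were themselves not called in any test made below, so a decrease particular to VEH-T3 was not shown.

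How firmly Hdac11 passed depended on single libraries and on scaling. Without VEH-HC mouse 2, 3, 4 or 5, or without VEH-T3 mouse 2, 3 or 6, its adjusted p in VEH-T3 rose to between 0.0507 and 0.115, and without VEH-HC mouse 2 that of the trained mean rose to 0.0747. With each library centered on its median, the difference was -0.23 in VEH-T3 and -0.17 over the trained mean, with adjusted p = 0.114 in both. With the trend with transcript length and GC content removed it was -0.18 (adjusted p = 0.151) and -0.15 (adjusted p = 0.0807). Without VEH-T3 mouse 1 and Y397F-T10 mouse 1, the libraries of lowest correlation, the decrease was larger in VEH-T3 (-0.29, adjusted p = 0.00480), in Y397F-T10 (-0.27, adjusted p = 0.0170) and over the trained mean (-0.22, adjusted p = 0.00441). Annotated antisense genes overlap Hdac11 on the other strand, and with the library strandedness not given in the sources used here their reads could not be told from its own.

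Marker levels of neighboring structures and other cell types were set beside the Hdac11 result. The summed FPKM of the 6 choroid plexus markers ran from 918 to 5607 in home cage mice. It ran from 10.4 to 4477 after VEH-T10, from 29.9 to 12801 after VEH-T3, from 28.8 to 10415 after Y397F-T10 and from 14.2 to 2842 after Y397D-T3. The median sum was 3154 in VEH-HC, against 102 in VEH-T10, 1957 in VEH-T3, 55.9 in Y397F-T10 and 125 in Y397D-T3. Over the trained mean the median log2 difference of the 6 genes was -1.93, although with this wide spread none of the 6 passed the test. The 4 deep cortex markers summed to between 18.3 and 22.6 FPKM in home cage mice. Their sums lay between 14.4 and 17.8 after VEH-T10, 14.9 and 25.6 after VEH-T3, 13.2 and 19.0 after Y397F-T10 and 14.7 and 20.8 after Y397D-T3, and 2 of the 3 tested, Cplx3 and Ctgf, were lower over the trained mean. The 5 thalamus markers summed to between 22.1 and 33.1 FPKM in VEH-HC and from 10.5 to 46.1 across trained mice, and 1 was lower, Slc17a6, the vesicular glutamate transporter of subcortical neurons, at -0.97 ± 0.19 on the log2 scale (adjusted p = 0.00342 in limma). Oligodendrocyte markers summed to between 1988 and 2272 FPKM in VEH-HC and from 1220 to 3999 across trained mice, and 0 of the 6 passed. In the same comparison 1 of 6 CA1 markers, Dcn, and 1 of 5 interneuron markers, Gad1, were lower. Dcn is also a gene of meningeal fibroblasts, and the other 5 CA1 markers were not called. In Y397D-T3 Dcn was lower (-1.06, adjusted p = 0.00248 in limma), while Pou3f1, another CA1 marker, was higher (0.33, adjusted p = 0.0198). Over the trained mean 1 of 4 CA2 and CA3 markers, Cpne4, was higher. There, 0 of 4 dentate granule, 0 of 5 astrocyte, 0 of 5 microglia and 0 of 5 endothelial markers passed. In VEH-T3 alone the single marker called was the endothelial receptor gene Flt1, higher by 0.24 (adjusted p = 0.0492). No marker of these lists was at 0 in any library. Their part in the Hdac11 result was not tested, nor was their part in the partner list results below, Camk2d included, which use the same comparison.

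Hdac4, a class IIa repressor of MEF2 targets, had the largest estimates in the other direction and did not pass. VEH-HC mice ranged from 3.22 to 6.39 FPKM (median 5.85), VEH-T10 mice from 5.41 to 6.52 (median 5.77), Y397F-T10 mice from 6.15 to 7.36 (median 6.30), VEH-T3 mice from 5.80 to 8.16 (median 6.35) and Y397D-T3 mice from 5.65 to 7.43 (median 6.71). All groups overlapped. The log2 difference from VEH-HC was 0.09 for VEH-T10, and VEH-T3 stood at 0.22, Y397F-T10 at 0.23 and Y397D-T3 at 0.24, each with an SE of 0.0989 and adjusted p between 0.131 and 0.740 in limma. Much of this rested on VEH-HC mouse 4 at 3.22 FPKM, since without it the difference over the trained mean was 0.07 (adjusted p = 0.507) in place of 0.19 (adjusted p = 0.117).

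Hdac8 had its highest condition mean in VEH-T10, although the highest mice of Y397F-T10 and Y397D-T3 lay above every VEH-T10 mouse. VEH-T10 mice ranged from 7.71 to 8.57 FPKM (median 8.32) against 6.11 to 8.33 (median 6.87) in VEH-HC, and 6 of 6 lay above the home cage median, although the groups overlapped. The log2 difference was 0.20 ± 0.08 (SE, adjusted p = 0.208 in limma). In the other trained conditions it was 0.07 to 0.09, with adjusted p from 0.579 to 0.681.

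Hdac5, which shuttles out of the nucleus in active neurons, ranged from 42.5 to 47.5 FPKM in VEH-HC (median 45.3) and from 40.7 to 44.0 in Y397F-T10 (median 42.3). Those ranges overlapped, and the difference was -0.09 ± 0.04 on the log2 scale (SE, adjusted p = 0.264 in limma). Hdac6 was lower than the home cage median in 20 of 24 trained mice and Hdac9 in 22 of 24, with log2 differences over the trained mean of -0.10 ± 0.06 and -0.07 ± 0.05 and adjusted p = 0.286 and adjusted p = 0.447. Hdac1, Hdac2, Hdac7 and Hdac10 had estimates between -0.15 and 0.07 in each trained condition, and none passed.

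The counts over the family were small and are to be read against all rows. In VEH-T10 against VEH-HC, 0 of 10 deacetylases were called by limma, beside 0.819% of all rows. At an unadjusted p under 0.05 the test gave 2, Hdac8 and Hdac11 (14.9% of rows), an exact permutation test of 6 against 6 mice gave the same number (18.2%), and a test in the manner of Cyber-T gave 0 (3.41%). In VEH-T3, 1 of 10 was called, Hdac11, beside 5.17% of all rows and 2.94% called lower. The unadjusted counts were 2 (21.6%), 1 in the exact test (18.9%) and 1 in the Cyber-T-style test (5.03%).

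For Y397F-T10 against VEH-HC the call count was 0, beside 1.13% of rows. Unadjusted, it was 3 (16.9%), with 2 in the exact permutation test (16.9%) and 1, Hdac11, in the Cyber-T-style test (3.31%). For Y397D-T3 the count was again 0, beside 7.07%, with 1 unadjusted (24.9%), 1 in the exact permutation test (29.4%) and 0 in the Cyber-T-style test (8.1%). Over the mean of the 4 trained conditions 1 of 10 was called, beside 9.66% of rows in either direction and 5.79% called lower, and 2 passed unadjusted (25.3%). A count of 1 in 10 is close to that share. The median log2 difference of the family over the trained mean was -0.04, as was that of all tested rows.

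**Figure D3:**
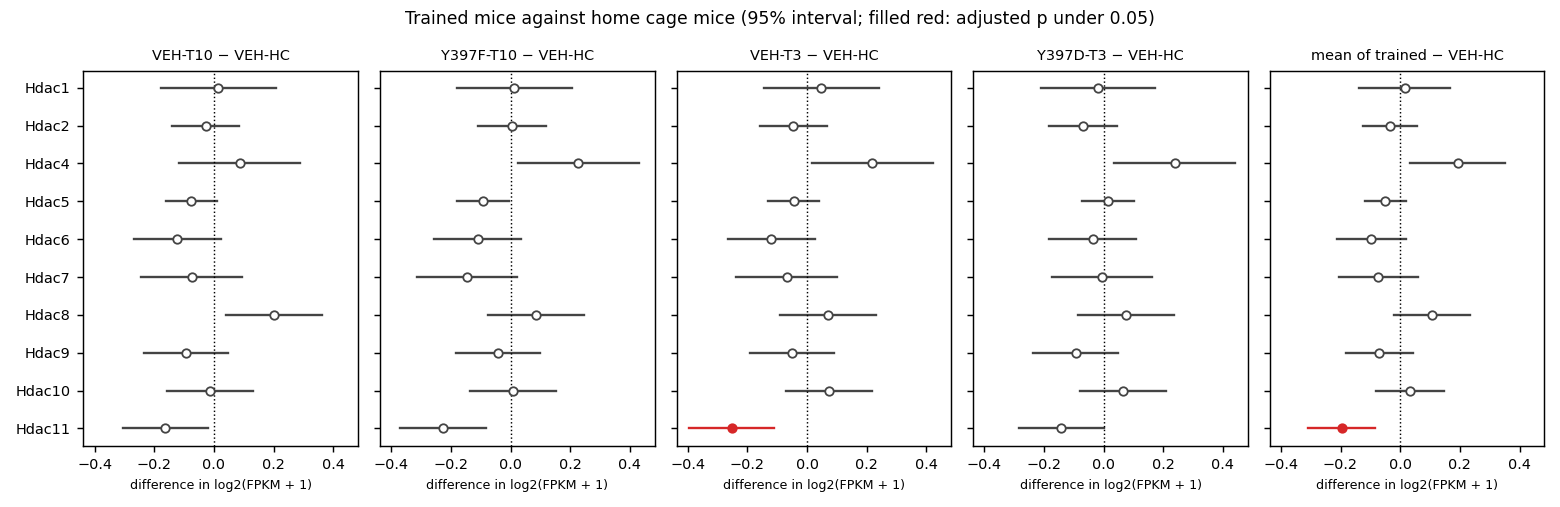
Difference in log2(FPKM + 1) of each deacetylase from VEH-HC in each trained condition and over their mean, with 95% intervals from the limma fit and red filled points for an adjusted p under 0.05. Red points appear for Hdac11 in VEH-T3 (-0.25) and in the trained mean (-0.20), and Hdac4 lies to the right of 0 in every panel without passing.

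The plasmids and the training period were compared among trained mice. For CREST Y397F against vehicle after 10 min training, limma called 0 of 10 deacetylases and 0 of all rows (0%). Estimates ran from -0.12 for Hdac8 to 0.14 for Hdac4. Unadjusted, 0 of 10 passed in limma (3.78% of rows), 1 in the exact permutation test, Hdac4 (4.54%), and 0 in the Cyber-T-style test (0.228%). Hdac4 was higher than the VEH-T10 median in 6 of 6 Y397F-T10 mice, by 0.14 with a 95% interval from -0.06 to 0.34.

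With CREST Y397D after 3 min training, 0 of 10 deacetylases passed against VEH-T3, beside 0.00758% of rows. The unadjusted counts were 0 in limma (7.87%), 0 in the exact permutation test (6.51%) and 0 in the Cyber-T-style test (0.736%). Estimates ran from -0.07 for Hdac1 to 0.11 for Hdac11. Hdac11 averaged 73.6 ± 6.24 FPKM in Y397D-T3 and 68.2 ± 7.62 in VEH-T3 (SD, n = 6), with overlapping ranges, adjusted p = 0.713 and a 95% interval from -0.03 to 0.25. Hdac6 was above the VEH-T3 median in 6 of 6 Y397D-T3 mice, by 0.08 (adjusted p = 0.785).

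Between VEH-T10 and VEH-T3, 0 of 10 were called, beside 0.0455% of rows. Unadjusted, 0 passed in limma (8.15%), 1 in the exact permutation test, Hdac8 (6.77%), and 0 in the Cyber-T-style test (0.614%). Hdac8 was higher in VEH-T10 by 0.13, with a 95% interval from -0.03 to 0.29 and all 6 VEH-T10 mice above the VEH-T3 median. Hdac4 was lower in VEH-T10 by estimate, at -0.13 (adjusted p = 0.771).

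The plasmid effects were compared as an interaction, Y397D-T3 minus VEH-T3 set against Y397F-T10 minus VEH-T10. Each mutant was given with a single training period, so this contrast cannot tell a difference between mutants from a difference between training periods. None of the 10 deacetylases passed in limma, beside 0.0303% of rows, and 0 passed at an unadjusted p under 0.05 (9.08%). Hdac11 had the largest estimate at 0.17 ± 0.10 (SE, adjusted p = 0.613). The 95% intervals reached at most 0.203 to either side of the log2 estimate for pairs of conditions, and 0.287 for the interaction. Differences of that size may have gone undetected, and so may larger ones, since calls rest on adjusted p. Hdac4 at 0.24 in Y397D-T3 against VEH-HC, for example, was not called (adjusted p = 0.131 in limma).

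**Figure D4:**
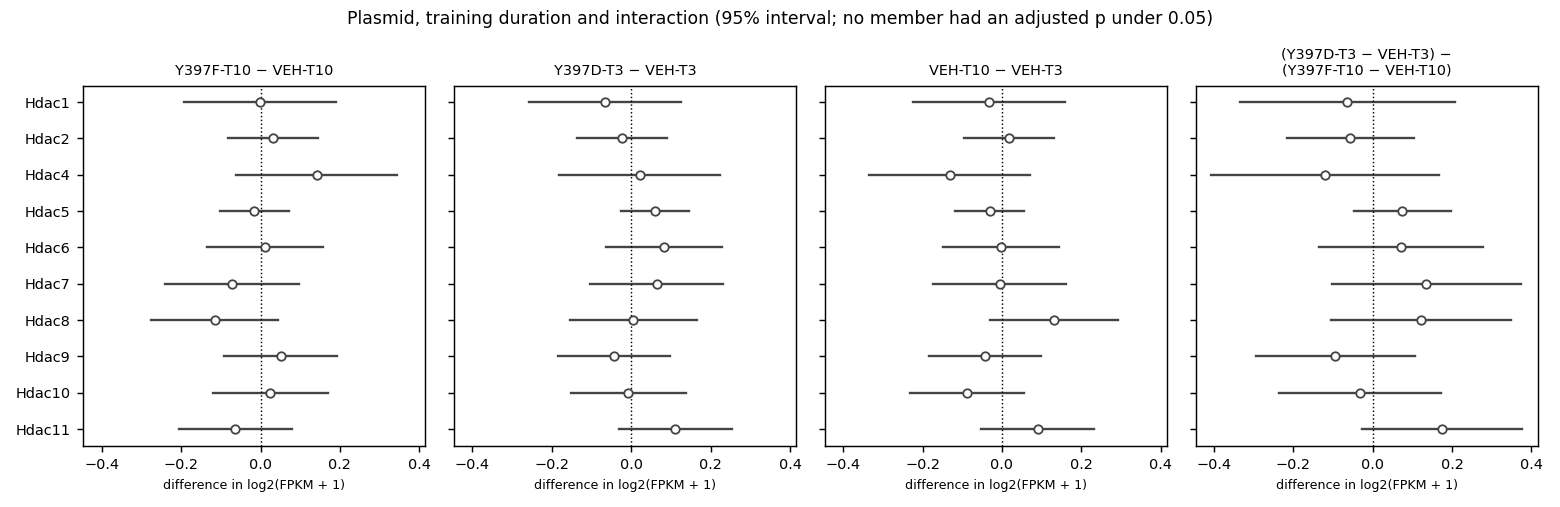
Difference in log2(FPKM + 1) of each deacetylase for CREST Y397F against vehicle at 10 min, CREST Y397D against vehicle at 3 min, VEH-T10 against VEH-T3, and the difference between both plasmid effects, with 95% intervals. Every interval includes 0, and the point estimates lie between -0.13 and 0.17.

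The genes that act with the deacetylases were examined through lists of partners and substrates, over the mean of the 4 trained conditions against VEH-HC. Class I complex partners, the scaffold and reader subunits of the Sin3, NuRD and CoREST complexes that hold Hdac1 and Hdac2, had 2 of 31 genes higher, 1 lower and 28 not called, a share close to the 9.66% of all rows called in this comparison. Gatad2b, a NuRD subunit, rose by 0.36 ± 0.08 on the log2 scale (SE, adjusted p = 0.00596 in limma), from 9.43 ± 1.82 to 12.3 ± 1.68 FPKM (SD). Rcor1, the CoREST scaffold, rose by 0.23 ± 0.06 (adjusted p = 0.0268), and Sap130, a Sin3 subunit, fell by 0.15 ± 0.04 (adjusted p = 0.00978). By condition, Gatad2b also passed in VEH-T3 (0.49) and in Y397D-T3 (0.46).

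Of the kinases and export factors of class IIa enzymes 3 of 23 were higher, 3 were lower and 17 were not called, beside the same 9.66% of all rows. Camk1d, a calmodulin-dependent kinase, rose by 0.25 ± 0.04 (adjusted p = 0.00170 in limma) and was called in each of the 4 trained conditions, with differences between 0.21 and 0.31. Camk2a, the abundant forebrain kinase of synaptic plasticity, rose by 0.18 ± 0.05 (adjusted p = 0.0224), and Sik2, a salt-inducible kinase that phosphorylates class IIa enzymes, by 0.22 ± 0.07 (adjusted p = 0.0294). Camk2d fell by 0.57 ± 0.12, from 9.33 ± 1.62 to 6.02 ± 1.64 FPKM (adjusted p = 0.00462). Camk2g fell by 0.20 ± 0.05 (adjusted p = 0.0146) and Sik1, a kinase gene induced by cAMP signaling, by 0.29 ± 0.09 (adjusted p = 0.0436). By condition, Camk2d was called lower in VEH-T10 (-0.67) and Y397D-T3 (-0.66), Camk2g lower in VEH-T3 (-0.22), Sik2 higher in VEH-T3 (0.35), and Camk2a (0.24) and Camk2b (0.26) higher in Y397D-T3.

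Among the 4 MEF2 factors, the transcription factors that class IIa enzymes repress, 3 were tested and 1 was called, beside 9.66% of all rows. Mef2a rose by 0.14 ± 0.03 (adjusted p = 0.0131 in limma), and passed in VEH-T3 and Y397D-T3 with 0.16 in each. Mef2d stood at 0.10 (adjusted p = 0.224) and Mef2c at -0.17 (adjusted p = 0.283), neither past the test.

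Hdac6 substrates and partners had 3 of 9 lower and 0 higher, cohesin genes 1 of 5 lower and polyamine genes 1 of 11 lower, beside 5.79% of all rows called lower. Vcp, the ATPase that handles ubiquitinated proteins, fell by 0.13 ± 0.03 (adjusted p = 0.00342 in limma). Tuba1b, an alpha-tubulin, fell by 0.24 ± 0.05 (adjusted p = 0.00755), from 371 ± 14.5 to 316 ± 33.4 FPKM, and Sqstm1, an autophagy receptor, by 0.11 ± 0.03 (adjusted p = 0.0489). All 3 also passed in VEH-T3, and Vcp and Tuba1b in Y397D-T3. Rad21, the kleisin subunit of the cohesin ring on which Hdac8 acts, was the cohesin gene called, lower by 0.09 ± 0.03 on the log2 scale (adjusted p = 0.0439), with -0.16 in Y397D-T3. Among the polyamine genes Srm, spermidine synthase, was lower by 0.18 ± 0.05 (adjusted p = 0.0273), also in VEH-T3 at -0.25, and Azin1, an antizyme inhibitor, was lower in Y397D-T3 by 0.16. The trained-mean calls of the lists depended in part on scaling, while each of the 15 called genes kept its direction. With each library centered on its median, Sap130, Camk2g, Sik1, Sqstm1, Rad21 and Srm were no longer called, with adjusted p between 0.0587 and 0.196. Their differences were then -0.13 for Sap130, -0.17 for Camk2g, -0.26 for Sik1, -0.08 for Sqstm1, -0.06 for Rad21 and -0.15 for Srm. With the length and GC trend removed, Mef2a (0.09, adjusted p = 0.117), Tuba1b (-0.18, adjusted p = 0.0540), Sqstm1 (-0.06, adjusted p = 0.156) and Sik1 (-0.28, adjusted p = 0.0515) were not called in limma. Gatad2b, Rcor1, Camk1d, Camk2a, Camk2d, Sik2 and Vcp passed under both. None of the list genes was called in the plasmid, training period or interaction comparisons.

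**Figure D5:**
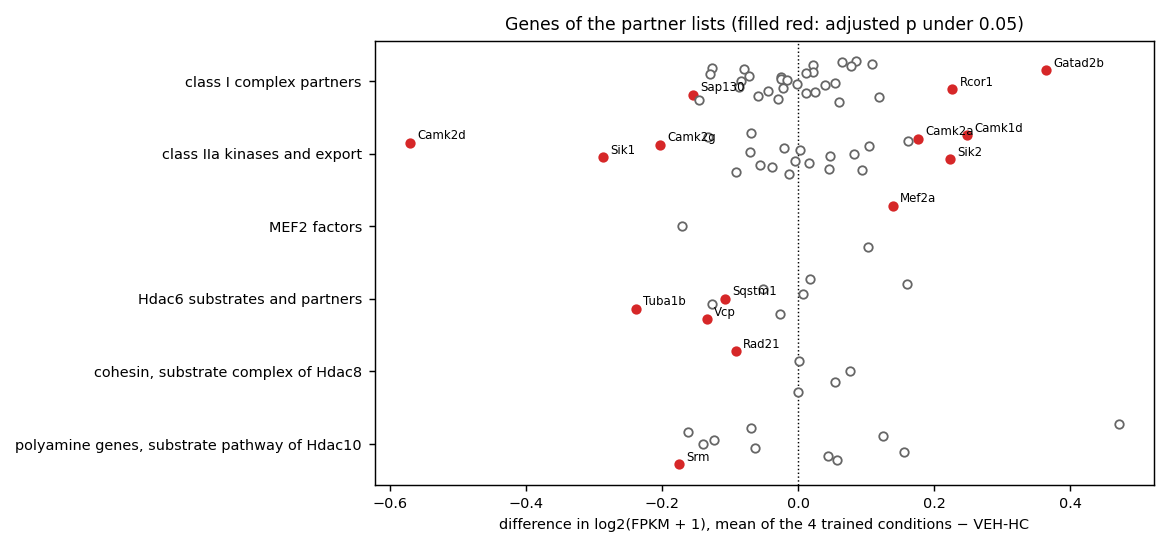
Difference in log2(FPKM + 1) over the mean of the 4 trained conditions against VEH-HC for each tested gene of the partner and substrate lists, 1 point per gene, with red filled points for an adjusted p under 0.05. Called genes lie on both sides of 0 for the class I complexes and the class IIa kinases, and the 3 called Hdac6 partners lie to the left.

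The genes whose pattern over the 30 libraries was most like that of Hdac11, among all tested rows outside the family, were Pgam1, a glycolytic phosphoglycerate mutase, and Ap2m1, a subunit of the AP-2 clathrin adaptor. After each gene was centered on its mean, their root mean square difference from Hdac11 was 0.0670 and 0.0707 on the log2(FPKM + 1) scale over 30 libraries, against an SD of 0.143 for Hdac11 itself. Pgam1 was lower in trained mice by estimate, at -0.11 (adjusted p = 0.122 in limma), and Ap2m1 at -0.14 (adjusted p = 0.0546). Both genes were picked for likeness to Hdac11 over these same libraries, so a shared direction was favored by the choice and is no separate result.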

How the data were processed

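Total RNA from 30 dorsal hippocampus hemispheres was sequenced as paired reads on NovaSeq and HiSeq platforms, which the labels do not assign to libraries. Per the labels and the study's methods, the authors aligned reads to mm10 with TopHat2 2.1.1 and deposited FPKM values per gene symbol computed with Cufflinks 2.2.1; the annotation release and strandedness are not given in the sources used here. FPKM holds no fragment counts, so absolute depth is unknown and no count test was run. Of 24883 rows, 13184 with mean FPKM of at least 1 were tested as log2(FPKM + 1) with limma 3.58.1 in R 4.3.3, with 1 coefficient per condition, trended empirical Bayes shrinkage and Benjamini-Hochberg adjustment, threshold 0.05. A difference on this scale understates the change of low genes. The study used Cyber-T in ANOVA mode, which was not installed; limma over all 5 conditions took its place, and a test with variances shrunk over windows of 101 genes with prior weight 10 and Tukey p over the condition pairs was an alternative. Python 3.11.15 was used for descriptions. The models were tested on simulated data.

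The genes and lists were chosen with earlier results of these data known. Named were all 10 deacetylases, of each partner list up to 3 called genes per direction and comparison with the lowest adjusted p, the 2 genes most like each called deacetylase, and Ss18l1; Mef2c, Mef2d and single marker genes were named after their values were seen. Alternatives were a pseudocount of 0.1, no filter, libraries centered on their median, an unadjusted p, only the libraries compared, a replicate block, a length and GC correction, an exact permutation test and leaving out libraries; the lists were run under both scalings after seeing the data. Samples were grouped by their labels. The mice are separate animals. The deposited table holds no columns of comparisons, and the study's own comparison tables were not used. Protein sequences were not used here.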

Additional observations from a re-analysis of the deposited data

Results flagged for a closer look

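For each of the 10 deacetylases in each of the 5 conditions, the most distant of the 6 mice was compared with the rest by Dixon's ratio of gap to range and its 95% critical value. Of the 50 groups 3 exceeded it, and chance alone gives about 1 in 20. Hdac4 in VEH-HC mouse 4 was 3.22 FPKM, with the other 5 home cage mice between 5.57 and 6.39. Hdac4 in VEH-T3 mouse 1 was 8.16 FPKM, with the others between 5.80 and 6.44. Hdac9 in Y397F-T10 mouse 1 was 8.66 FPKM, with the others between 6.30 and 7.03. The last of these libraries and VEH-T3 mouse 1 were also the pair with the lowest median correlation with all others. They held the lowest 2 values of the 30 libraries for Hdac1 (13.8 and 14.4 FPKM, the other 28 from 16.3 to 23.0) and for Hdac2 (33.0 and 33.7, the others from 35.6 to 43.1), and the highest 2 for Hdac9 (8.59 and 8.66, the others from 5.95 to 7.85).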

How the results depend on the processing

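Counts of called deacetylases moved as follows. In VEH-T10 against VEH-HC, 0 became 2 at an unadjusted p, 1 with only the libraries compared (Hdac11) and 2 in the exact permutation test. In VEH-T3, 1 became 2 unadjusted, and 0 with libraries centered on their median, with the length and GC trend removed (adjusted p = 0.151 for Hdac11) or with only the libraries compared (adjusted p = 0.0893). In Y397F-T10, 0 became 3 unadjusted, 1 in the Cyber-T-style test, 2 in the exact test and 1 without the 2 libraries of lowest correlation, an alternative chosen after seeing the data. In Y397D-T3, 0 became 1 unadjusted, 1 with the length and GC trend removed (Hdac9, -0.19, adjusted p = 0.0380 in limma) and 1 in the exact test. The exact test also gave 1 in Y397F-T10 against VEH-T10 and 1 in VEH-T10 against VEH-T3. For the trained mean, 1 became 2 unadjusted and 0 with centering, and with the length and GC trend removed the gene called was Hdac9 (-0.15, adjusted p = 0.0269) in place of Hdac11 (-0.15, adjusted p = 0.0807). The cause of these moves was not tested. Leaving out each library in turn gave 0 to 1 called in VEH-T3, 0 to 1 in Y397F-T10 (1 without Y397F-T10 mouse 1, Hdac11 at adjusted p = 0.0347), 0 to 1 in the trained mean, 0 in each other comparison and 9 of 9 ordered pairs. A pseudocount of 0.1 and no filter on mean FPKM changed no count, and the differences of Hdac4, Hdac5, Hdac8 and Hdac11 from VEH-HC that were rerun kept their direction under each alternative; those of the other deacetylases were not compared this way. The order of levels was the same without each library in turn. Ranked within the home cage mice alone, 6 of 9 neighbor pairs differed, in an order that swaps Hdac8 with Hdac9 and Hdac4 with Hdac7.

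Replicate numbers belong to different mice. Same-numbered mice of different conditions had a median correlation of deviations of 0.0416 (60 pairs, from -0.496 to 0.840), against 0.00649 for different numbers. These medians show no pairing by number but cannot exclude a batch shared by some mice. With the replicate number as a block, every count stayed the same, and Hdac11 had adjusted p = 0.0309 in VEH-T3 and adjusted p = 0.0218 in the trained mean.

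Centering shifted the median difference of all rows by under 0.1 but moved the share of higher calls against VEH-HC from 38.9% to 71.7% in VEH-T10, 43.2% to 70.1% in VEH-T3, 41.6% to 71.4% in Y397F-T10, 55.3% to 73.6% in Y397D-T3 and 40% to 66.3% in the trained mean. Transcript length and GC were known for 96.2% of rows.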
